A study of Mus musculus with 15 samples.

Results

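The comparison described here is between primary mouse hepatocytes that carried a control hairpin and then received glucagon and hepatocytes that carried EGFP. Its members are the arrays with those labels: 6 of the 15 arrays of the study, 3 per group. The control hairpin cells had been infected with the adenovirus Ad-shCON for 72 hours and then given glucagon for 4 hours. The EGFP cells had been infected with Ad-EGFP for 48 hours and received no glucagon. All cells came from C57BL/6 mice and were kept in a serum-free hepatocyte medium. The other 9 arrays carried wild-type IRE1a or IRE1aS724A for 48 hours, or a hairpin against IRE1a for 72 hours with the same 4 hours of glucagon. Virus, culture time and glucagon changed together between the groups, as did any handling that separated the 72-hour cells from the 48-hour cells, so their parts in any difference cannot be told apart. The study's design text speaks of 3 independent experiments, but the labels do not say whether the arrays of a group came from separate animals or cultures, so the p-values measure the spread between these arrays, which may be technical.

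Glucagon is the fasting hormone of the pancreas. Its receptor on hepatocytes, Gcgr, raises cyclic AMP, which activates protein kinase A. The kinase phosphorylates the transcription factor CREB, while coactivators of the CRTC family enter the nucleus, and together they switch on genes of gluconeogenesis, the making of glucose from amino acids and lactate. The NR4A orphan nuclear receptors, Ppargc1a and Crem are classical early targets of the same route, and phosphodiesterases, Crem itself and the SIK kinases restrain it. Hepatocytes in culture also lose part of their differentiated programme with time.

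The signals are log2 values, 1 per gene and array, and a difference of 1 is a doubling. The 6 arrays had like signal distributions, with medians between 5.72 and 5.83 and 79.0% to 81.4% of probe sets at 4 or above. Across genes, arrays of a group correlated at 0.988 to 0.994 and arrays of different groups at 0.970 to 0.984. The median SD of a gene was 0.14 with EGFP and 0.15 with the control hairpin, but 61 genes had an SD above 1 with the control hairpin and 13 with EGFP. Control hairpin replicate 3 was the array farthest from the rest in 27 of the genes whose signal ranged over more than 2 within a group, the most of any array. Defining hepatocyte markers were bright on all 6 arrays: albumin (Alb) was at 14.44 to 14.56 with EGFP and 14.20 to 14.46 with the control hairpin, transthyretin (Ttr) at 13.86 to 13.92 and 13.79 to 13.87, and the hepatocyte transcription factor Hnf4a at 10.29 to 10.76 and 10.96 to 11.36. None of these passed the test (adjusted p = 0.306, 0.739 and 0.0617).

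Of 16294 genes tested with limma, 2620 passed an adjusted p of 0.05, which is 16.1% of all. They comprised 1522 genes that rose with the control hairpin and glucagon (9.34%) and 1098 that fell (6.74%). At least a 2-fold change was seen in 274 of the rises (1.68%) and 224 of the falls (1.37%). The median difference over all genes tested was -0.05. The arrays of the groups did not overlap in 5903 genes (36.2%), with all control hairpin arrays higher in 16.6% and lower in 19.6%. The number of calls depended on single arrays: without EGFP replicate 2, EGFP replicate 3 or control hairpin replicate 1 it was 1476, 1349 or 1330. In 877 of the rises (5.38% of genes tested) the 3 control hairpin arrays also lay above all 9 arrays of the 48-hour cells, and in 591 of the falls (3.63%) below all 9.

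The gluconeogenic gene Pck1, which encodes phosphoenolpyruvate carboxykinase, showed the largest change of any gene tested. Its signal was 5.34, 5.02 and 5.71 on the EGFP arrays and 12.42, 12.83 and 12.57 on the control hairpin arrays. The groups were far apart, with a difference of 7.25 ± 0.22 (limma's SE, n = 3 per group) or 152-fold (adjusted p = 1.43e-10). The second of its 2 tested probe sets differed by 5.97, and the mean over its 3 probe sets, 1 of them dim, differed by 4.39. Ppargc1a, the coactivator that drives gluconeogenic transcription, was at 4.66, 4.84 and 4.31 with EGFP and at 8.87, 8.91 and 7.85 with the control hairpin. It rose by 3.94 ± 0.32 (15.4-fold, adjusted p = 4.68e-06), and all 5 of its probe sets passed. The EGFP signals of both genes lie below the array medians, near the limit of 4 used for dim signals, so the folds are approximate. With the hairpin against IRE1a and glucagon the mean signals of Pck1 and Ppargc1a were 12.54 and 8.62, and with wild-type IRE1a without glucagon 6.39 and 4.28.

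The promoters of these genes are shown because cyclic AMP is known to act on both through CREB binding. Each is RefSeq sequence of assembly GRCm38.p6 from 250 bases before to 50 after the transcript start, printed 5′ to 3′ in the direction of the gene. Capitals mark a match to TGACG, the core of the cyclic AMP response element, here read on the opposite strand as CGTCA. The Pck1 window lies on the plus strand at chr2:173152823-173153122 and that of Ppargc1a on the minus strand at chr5:51567676-51567975. The annotated Ppargc1a gene spans 51454249 to 52115853 on chromosome 5. Its window is therefore at a transcript start inside the gene. Which start these cells use, whether the marked letters are the known CREB site, and whether CREB acts there were not tested.
Pck1: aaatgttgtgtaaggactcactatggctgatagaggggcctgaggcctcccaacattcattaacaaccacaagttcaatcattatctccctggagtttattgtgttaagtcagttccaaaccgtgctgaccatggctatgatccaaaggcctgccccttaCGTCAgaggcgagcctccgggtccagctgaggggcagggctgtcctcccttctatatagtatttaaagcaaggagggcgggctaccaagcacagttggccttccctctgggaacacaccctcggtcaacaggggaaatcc
Ppargc1a: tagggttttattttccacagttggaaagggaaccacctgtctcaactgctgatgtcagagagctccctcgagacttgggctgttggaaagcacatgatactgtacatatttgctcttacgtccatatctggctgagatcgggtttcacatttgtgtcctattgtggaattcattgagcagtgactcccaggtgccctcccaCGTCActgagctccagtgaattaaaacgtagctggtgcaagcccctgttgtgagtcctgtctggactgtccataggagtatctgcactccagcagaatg
The match began at base 161 of the Pck1 window and at base 202 of the Ppargc1a window, where the transcript starts at base 251. TGACG on either strand was found in 31.4% of the 12994 tested genes with a promoter sequence, and in 38.8% of those that rose and 28.3% of those that fell. It was found in 7 of the 12 genes with the largest rises, namely Pck1, Ppargc1a, Nr4a3, Nr4a2, Nr4a1, Procr and Ppp1r3g. The full palindrome TGACGTCA, which contains TGACG, was found in 3.06% of all and in 0 of those 12. Of the 12 genes with the largest falls 10 had a promoter sequence, and 3 of these held TGACG. In Abcg5, Tat, Gcgr and Alpl the match did not always follow the direction of change. The windows of Abcg5 and Tat, which rose, and of Gcgr, which fell, held no TGACG. For Alpl, which fell, a window held a match at base 123 and another held none. A match is a description of the letters in the window and not evidence of binding.

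Among the other gluconeogenic genes the response was uneven. The list of 14 tested genes held 6 that rose and 2 that fell, beside 9.34% and 6.74% of all genes. The median difference was 0.85 against -0.05 for all genes. G6pc, the glucose-6-phosphatase that releases free glucose, was at 11.15, 7.83 and 8.81 with EGFP and at 11.26, 11.44 and 11.32 with the control hairpin. All 3 control hairpin arrays were higher, yet EGFP replicate 1 was almost at their level, and the difference of 2.08 ± 1.07 (95% interval -0.20 to 4.36) missed the threshold (adjusted p = 0.191). It was 3.03 without EGFP replicate 1 and 1.36 without EGFP replicate 2, and did not pass in any alternative (adjusted p 0.0553 to 0.501). The SD was 1.71 with EGFP and 0.09 with the control hairpin. G6pc also ranged widely in the other 48-hour cells, from 8.56 to 12.23 with wild-type IRE1a and from 7.84 to 11.85 with IRE1aS724A.

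Got1, the cytosolic aspartate aminotransferase, rose from 10.55 to 10.99 with EGFP to 12.83 to 13.19 with the control hairpin, by 2.23 ± 0.15 (4.70-fold, adjusted p = 6.76e-07). Foxo1, the insulin-restrained transcription factor, rose by 1.17 ± 0.15 with 3 of 4 probe sets passing, and the alanine aminotransferase Gpt2 by 1.55 ± 0.27 (adjusted p = 0.00196). The tyrosine aminotransferase Tat was at 11.37, 10.25 and 10.86 with EGFP and at 11.98, 12.07 and 11.89 with the control hairpin. It rose by 1.15 ± 0.27 (adjusted p = 0.0111), and without EGFP replicate 2 it did not pass (adjusted p = 0.0562). The falls were Slc37a4, the glucose-6-phosphate translocase, at -0.97 ± 0.22, and the glucocorticoid receptor Nr3c1 at -0.54 ± 0.16, and the falls of the list numbered 0 without control hairpin replicate 1 and 1 without control hairpin replicate 2 or any 1 EGFP array. Pcx, Fbp1 and Pck2, which encode further enzymes of the pathway, differed by -0.11, 0.01 and -0.10 and did not pass.

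**Figure D1:**
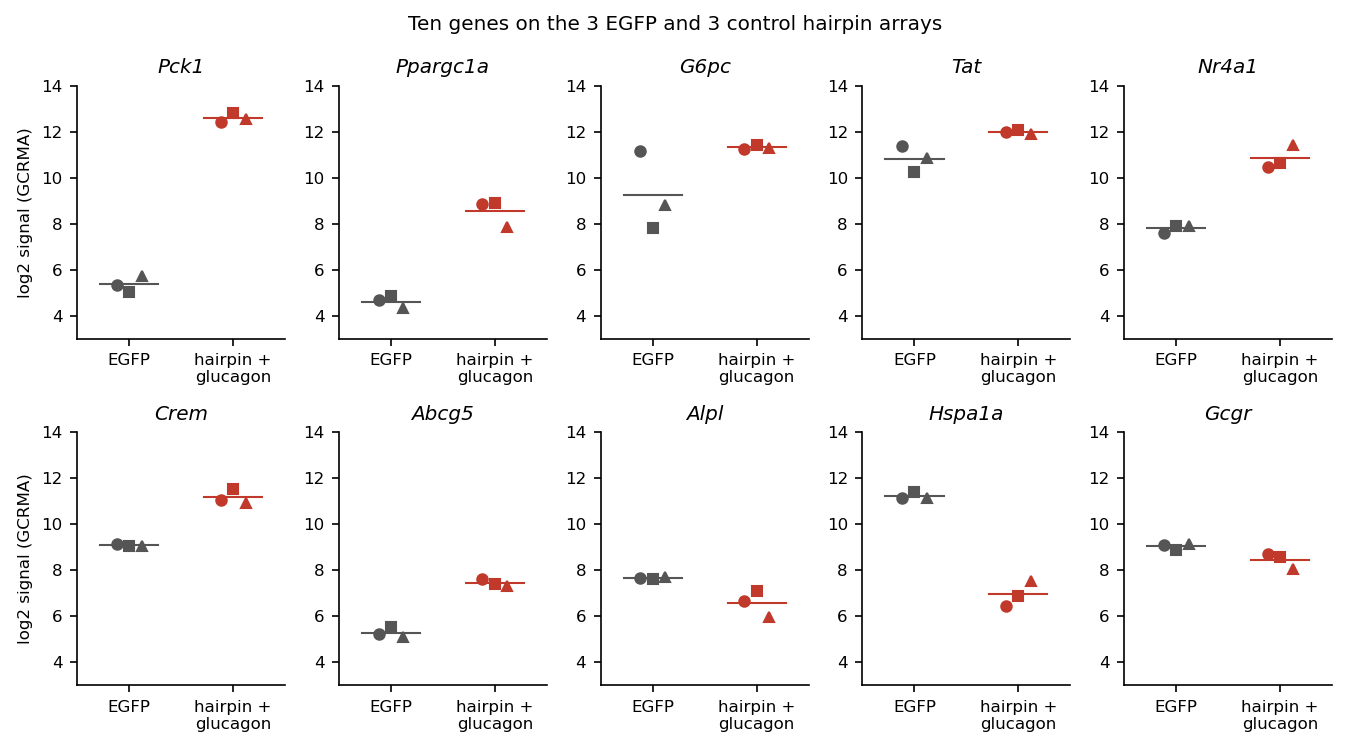
Log2 signal (vertical axis) of 10 genes on the 3 EGFP arrays (grey) and the 3 control hairpin arrays with glucagon (red). Circles, squares and triangles are replicates 1, 2 and 3, and lines are group means: Pck1 differs by 7.25, while EGFP replicate 1 of G6pc, at 11.15, lies beside the control hairpin arrays.

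Among genes of glucagon and cyclic AMP signalling 15 of 31 tested rose and 2 fell, with a median of 0.54, beside 9.34% and 6.74% of all genes. The count of rises was 14 to 17 over the alternatives run. The NR4A receptors led the list. Nr4a3 was at 5.44 to 5.78 with EGFP and 10.34 to 10.59 with the control hairpin, a rise of 4.94 ± 0.20 (30.7-fold, adjusted p = 2.70e-09). Its EGFP signals lie below the array medians, so the fold is approximate. Nr4a2 rose by 3.88 ± 0.29 and Nr4a1 by 3.06 ± 0.20. Probe sets disagreed: 1 of 3 for Nr4a3 and 4 of 6 for Nr4a2 passed, and with the mean of probe sets the rises were 1.58 and 1.80.

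Some genes that restrain the pathway rose and others did not pass. Crem, which yields the repressor ICER, was at 9.04 to 9.15 with EGFP and 10.95 to 11.56 with the control hairpin, a rise of 2.12 ± 0.18 (adjusted p = 5.70e-06) with 2 of 3 tested probe sets passing and 1.18 as the mean of all. The cyclic AMP phosphodiesterases Pde4d and Pde4b rose by 1.76 ± 0.24 and 2.09 ± 0.45, and the kinase Sik1 by 1.57 ± 0.25. Prkar1a, the regulatory subunit that holds protein kinase A inactive, rose by 0.54 ± 0.12, and the coactivator gene Crtc2 by 0.80 ± 0.19. The phosphodiesterase Pde3b and the regulatory subunit Prkar2a differed by -0.15 and -0.13 and did not pass. The receptor itself went the other way. Gcgr was at 9.11, 8.90 and 9.13 with EGFP and at 8.71, 8.59 and 8.06 with the control hairpin, a fall of 0.59 on the log2 scale (SE 0.14, adjusted p = 0.0124). It no longer passed when EGFP replicate 3 was left out or the 6 arrays were fitted alone (adjusted p up to 0.0584), and without control hairpin replicate 3 the difference was -0.39. The other fall was Cebpd, a C/EBP transcription factor, at -0.75 ± 0.16. Creb1 and the catalytic subunits Prkaca and Prkacb differed by 0.04, 0.28 and -0.03 and did not pass. TGACG was found in 9 of the 12 promoters available for the 15 genes that rose, beside 31.4% over all tested genes with a promoter. The full palindrome was found in 1 of those 12, Prkar1a. Among the 6 gluconeogenic genes that rose, TGACG was found in 2 (33.3%), Pck1 and Ppargc1a.

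Of 25 immediate early and MAPK feedback genes, 5 rose and 3 fell, 32% in all beside 16.1% of all genes tested. The AP-1 gene Fosl2 rose by 1.99 ± 0.21 on 1 of 2 probe sets and by 1.21 on their mean, the small MAF factor Maff by 1.58 ± 0.16 and the phosphatase Dusp4 by 1.67 ± 0.18. Klf2 was at 7.55 to 8.42 with EGFP and 5.93 to 6.39 with the control hairpin, and fell by 1.77 on the log2 scale (adjusted p = 0.000581). Its mean with wild-type IRE1a was 5.87, so the EGFP arrays were also high against other 48-hour cells. Jun and Myc differed by -0.13 and -0.86 and did not pass. Without control hairpin replicate 3 the falls numbered 6.

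In the insulin, growth hormone and IGF axis 13 of 27 genes rose and 2 fell, beside 9.34% and 6.74% of all genes. The median was 0.43 (0.28 without control hairpin replicate 2), and the rises numbered 10 to 13 over the alternatives. Irs2 and Irs1, the docking proteins of the insulin receptor, rose by 1.88 ± 0.23 and 1.94 ± 0.27. Irs2 was at 6.96 to 7.36 with EGFP and 8.68 to 9.54 with the control hairpin, with no overlap. Igfbp3, which binds IGF in plasma, was at 6.09, 6.29 and 6.99 with EGFP and 11.06, 9.69 and 9.23 with the control hairpin, a rise of 3.54 ± 0.54 (11.6-fold, adjusted p = 0.000930). Its mean with wild-type IRE1a, at 8.32, lay between the groups. Socs3, a brake on cytokine and insulin signalling, rose by 2.31 ± 0.21 (adjusted p = 1.30e-05), the growth hormone receptor Ghr by 1.79 ± 0.34 and Igf1 by 0.89 ± 0.24. The falls were the adaptor Grb10, at -1.16 ± 0.22, and Igfbp2, at -1.22 ± 0.32, and 1 fall was left without EGFP replicate 2 or control hairpin replicate 1 or 2. The receptors Insr and Igf1r differed by 0.36 and -0.09 and did not pass.

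**Figure D2:**
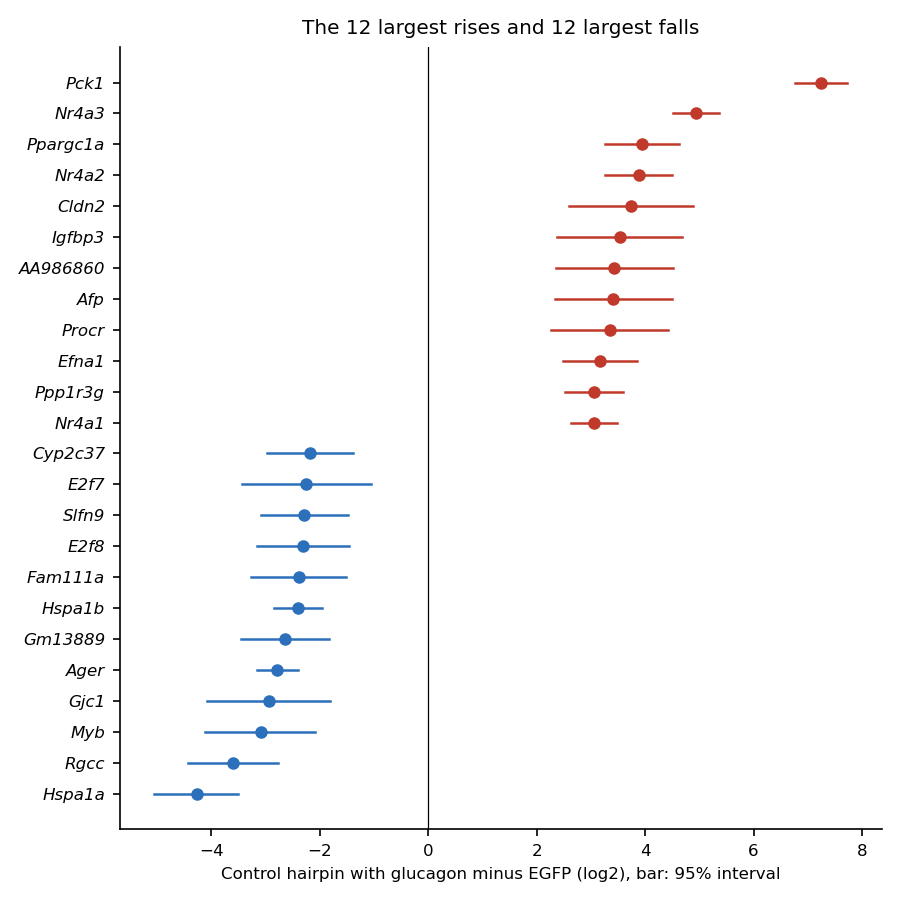
Difference between control hairpin with glucagon and EGFP (horizontal axis, log2) for the 12 largest rises (red) and 12 largest falls (blue) past the threshold with no overlap between the arrays of the groups. Points are limma's estimates and bars their 95% intervals: Pck1 at 7.25 stands apart from the next rise, Nr4a3 at 4.94, and Hspa1a at -4.27 leads the falls.

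Beyond these lists the largest rises included genes of the cell surface and the fetal liver. Cldn2, a pore-forming tight junction protein, was at 6.20, 6.22 and 6.70 with EGFP and 10.80, 10.23 and 9.30 with the control hairpin, a rise of 3.74 ± 0.53 (adjusted p = 0.000598). Afp, the fetal albumin homologue, was at 8.62, 8.23 and 9.61 and at 13.17, 11.92 and 11.61, a rise of 3.41 ± 0.50 with 3 of 5 probe sets passing and 2.05 as their mean. Procr, the endothelial protein C receptor, rose by 3.35 ± 0.51 and the ephrin ligand Efna1 by 3.17 ± 0.32. Ppp1r3g, which targets protein phosphatase to glycogen, rose by 3.06 ± 0.25 (8.36-fold, adjusted p = 4.75e-06). The fold is approximate, since its EGFP signals of 4.80, 4.89 and 5.37 lie below the array medians. The transcript AA986860 rose by 3.43 ± 0.50 on 1 of 2 probe sets and by 1.69 on their mean.

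The largest fall was Hspa1a, the inducible cytosolic chaperone. Its signal was 11.13, 11.41 and 11.13 with EGFP and 6.45, 6.87 and 7.52 with the control hairpin. The difference was -4.27 ± 0.36 (19.4-fold lower, adjusted p = 6.33e-06). The other 48-hour cells did not share the high EGFP signal: means were 7.34 with wild-type IRE1a and 7.85 with IRE1aS724A, and 6.63 with the hairpin against IRE1a and glucagon. The EGFP arrays were therefore the ones that stood apart from the other 4 groups. Its near-identical neighbour Hspa1b, whose probes may detect Hspa1a transcripts too, moved from 12.17 to 12.51 to 9.83 to 10.10, a difference of -2.40 ± 0.20. The Hspa1a promoter is shown because heat shock factor acts on it, with the capitals marking a match to GAANNTTC, the pair of facing heat shock units. It is RefSeq sequence of GRCm38.p6 on the minus strand at chr17:34972107-34972406.
Hspa1a: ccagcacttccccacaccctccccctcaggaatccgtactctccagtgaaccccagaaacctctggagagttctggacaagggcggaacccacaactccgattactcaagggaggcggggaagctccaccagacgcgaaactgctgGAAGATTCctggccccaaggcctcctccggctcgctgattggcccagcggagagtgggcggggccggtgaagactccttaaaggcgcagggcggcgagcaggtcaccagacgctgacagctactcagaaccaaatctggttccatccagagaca
The match began at base 147, and such a match was found in 7.33% of tested genes with a promoter sequence, Hspa1b among them.

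Of 19 cytosolic heat shock genes 5 fell and 2 rose, 36.8% in all beside 16.1% of all genes tested. The median was -0.17 (-0.11 without control hairpin replicate 1), and without EGFP replicate 3 the counts were 3 and 0. A single rise was left without EGFP replicate 2 or control hairpin replicate 1 or 2. Dnajb1, the co-chaperone of the family, fell by 0.54 on the log2 scale (SE 0.10), Stip1 by 0.43 and Hsp90aa1 by 0.31. Hspa4, an exchange factor for these chaperones, rose by 0.57 ± 0.13 and the small heat shock gene Cryab by 0.93 ± 0.25. Hspa8 and Hspd1 differed by -0.20 and -0.11 and did not pass.

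Genes of cytochrome P450 families 1 to 4, the enzymes of drug, steroid and fatty acid oxidation, held 16 falls and 1 rise among 32 tested, with a median of -0.87, beside 6.74% falls among all genes. Without EGFP replicate 3 the falls numbered 10. Cyp2c37 was at 7.57, 7.24 and 7.99 with EGFP and 5.64, 4.71 and 5.91 with the control hairpin, and fell by 2.18 on the log2 scale (SE 0.37, 4.53-fold, adjusted p = 0.00169). Cyp2b10, the classical target of the receptor CAR, was at 12.70 to 12.97 and at 10.52 to 11.65, a difference of -1.58 ± 0.25. Cyp2c29, Cyp2c54 and Cyp3a11 differed by -1.56, -1.31 and -1.39, and the pericentral gene Cyp2e1 by -1.86 ± 0.43. In 11 of the 16 falls control hairpin replicate 3 was the array nearest to EGFP. In 10 of them the control hairpin arrays lay below all 9 arrays of the 48-hour cells. Several of these genes are close paralogues whose probes may share transcripts. The gene that rose was Cyp4v3, by 0.60 ± 0.14, but not without EGFP replicate 2 or control hairpin replicate 1 or 2, and 3 rose without control hairpin replicate 3.

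**Figure D3:**
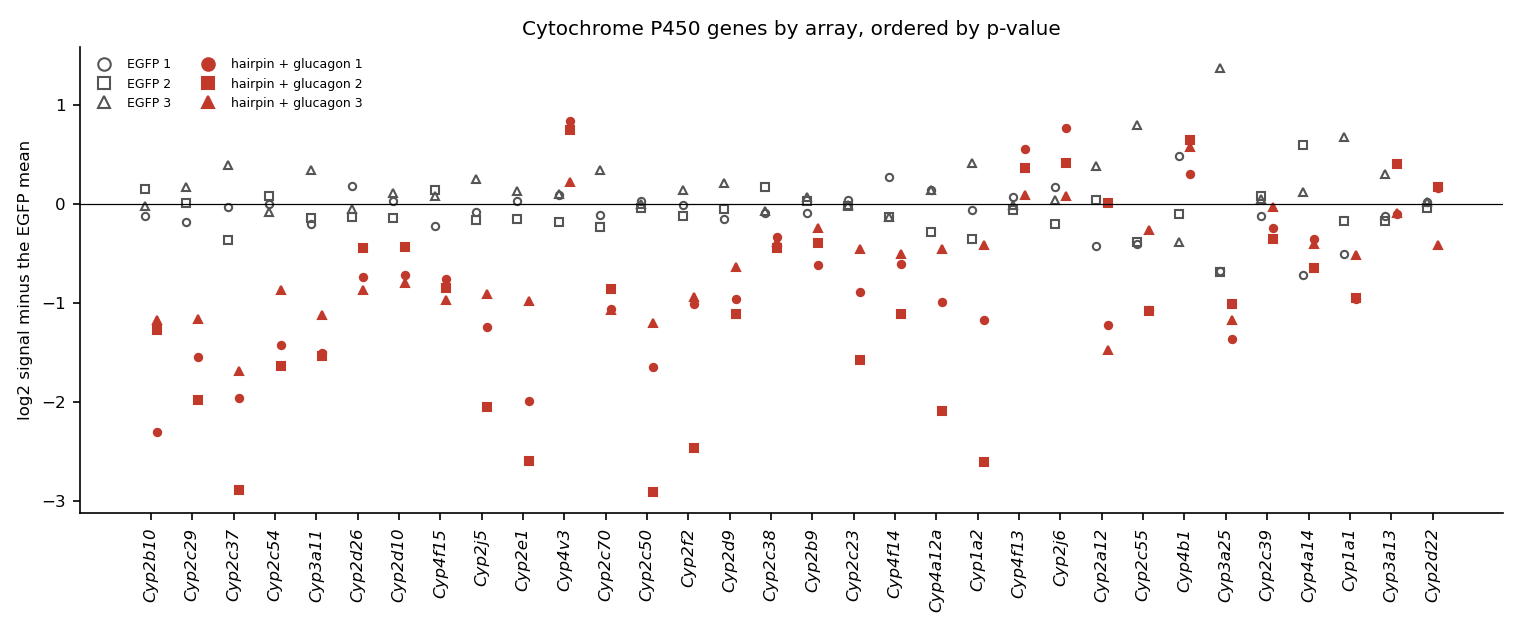
Signal of each cytochrome P450 gene tested on each array, given as log2 distance from the mean of the 3 EGFP arrays (vertical axis) and ordered by p-value from the left. Open grey symbols are EGFP arrays, red symbols control hairpin arrays with glucagon, and shapes mark the replicate: 16 of the 32 genes fell and 1, Cyp4v3, rose.

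Conjugating enzymes held 12 falls and 0 rises in limma among 31 tested genes, with a median of -0.62. Falls made up 38.7% of the list, beside 6.74% of all genes, and 2 genes were higher at an unadjusted p under 0.05. A single gene rose without control hairpin replicate 3 or with the 6 arrays fitted alone. Without EGFP replicate 3 or control hairpin replicate 1 the falls numbered 6. The glucuronosyltransferase Ugt2b34 was at 11.18 to 11.61 with EGFP and at 8.87, 10.24 and 9.20 with the control hairpin, a difference of -1.92 ± 0.29 (adjusted p = 0.000902). Ugt2b5, the glutathione transferase Gstm6 and Ugt2a3 differed by -1.78, -1.44 and -1.12. Control hairpin replicate 2 was nearest to EGFP in 9 of the 12 falls.

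Plasma proteins held falls among clotting factors and apolipoproteins. Of 29 tested, 14 fell and 2 rose, with a median of -0.50, and without EGFP replicate 3 the falls numbered 8. In either direction 55.2% passed, beside 16.1% of all genes tested. The rises numbered 1 without EGFP replicate 2 or 3 or control hairpin replicate 1 or 2. Serpinc1, antithrombin, was at 11.98 to 12.16 with EGFP and 11.02 to 11.17 with the control hairpin, a difference of -0.95 ± 0.10 (adjusted p = 6.24e-05). The clotting factor F7 differed by -0.91 ± 0.15 and complement component Hc by -1.09 ± 0.21. Both were as low with wild-type IRE1a, at means of 8.05 and 7.07 against 8.91 and 8.93 with EGFP. The clotting factor F11 rose by 1.42 ± 0.24 and Apoa5, an activator of triglyceride clearance, by 1.21. Alb, Apoa1 and Apob differed by -0.14, -0.22 and 0.32 and did not pass. Among 17 hepatocyte transcription factors 2 rose, Prox1 by 1.01 ± 0.23 and Cebpa by 0.71 ± 0.20, and 1 fell, Rxra by 0.37 on the log2 scale. In either direction 17.6% of these factors passed, near the 16.1% of all genes tested. The call of Prox1 was lost without control hairpin replicate 1 (adjusted p = 0.0517), that of Cebpa without EGFP replicate 2 or 3 or control hairpin replicate 1 or 2 (up to 0.110), and that of Rxra without EGFP replicate 3 or control hairpin replicate 1 or 2 (up to 0.134). The rises of the list numbered 4 without EGFP replicate 1 or control hairpin replicate 3.

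Transport and use of sterols and bile acids showed 2 rises and 6 falls among 29 tested genes, with a median of -0.26 (-0.16 without EGFP replicate 3). Passing genes were 27.6% of the list, beside 16.1% of all genes tested. The rises were Abcg5 and the cholesterol exporter Abca1, and 1 was left without EGFP replicate 2 or control hairpin replicate 1 or 2. Abcg5, a subunit of the canalicular sterol exporter, was at 5.22, 5.51 and 5.07 with EGFP and 7.63, 7.40 and 7.32 with the control hairpin. It rose by 2.18 ± 0.21 (4.54-fold, adjusted p = 1.73e-05), and all 3 arrays lay above the 9 arrays of the 48-hour cells. The EGFP signals of Abcg5 lie below the array medians, so the fold is approximate. Its partner subunit Abcg8 was at 7.46 to 7.79 and 7.40 to 7.62, and its difference of -0.06 ± 0.15 did not pass. The bile acid importers Slc10a1 and Slco1b2 fell by 1.42 and 1.06 on the log2 scale, the latter at -0.57 on the mean of its probe sets, and the bile acid enzyme Hsd3b7 by 0.76. Cyp7a1, the rate-limiting enzyme of bile acid synthesis, differed by -0.13 and did not pass. Of 20 cholesterol synthesis genes 5 rose and 2 fell, 35% in all, led by Pmvk at 1.37 ± 0.11 and Hmgcs1 at 1.00 ± 0.17. Without control hairpin replicate 3 the rises numbered 9. The falls numbered 1 without EGFP replicate 3 or control hairpin replicate 1 or 2.

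Cpt1a, which admits long-chain fatty acids to mitochondria, was at 9.26 to 9.34 with EGFP and 11.05 to 11.88 with the control hairpin, a rise of 2.22 ± 0.19 (4.66-fold, adjusted p = 6.36e-06). Of the 25 tested genes of fatty acid oxidation and ketogenesis only Hadh, at 0.84 ± 0.14, rose with it, and Fabp1, the cytosolic fatty acid carrier, fell by 1.79 on the log2 scale (SE 0.38). In either direction 12% of this list passed, beside 16.1% of all genes tested. The falls numbered 3 without control hairpin replicate 3. Synthesis of fatty acids and triglycerides had 4 rises and 4 falls among 22 genes, 36.4% in all. The rises were the phosphatidate phosphatases Lpin2 and Lpin1, at 0.89 ± 0.11 (0.58 on the mean of probe sets) and 1.34 ± 0.33, Dgat1 and Gpam. The falls were Acaca, Thrsp, Me1 and Mlxipl, at -0.82, -0.75, -0.53 and -0.45. They numbered 1 without EGFP replicate 1, EGFP replicate 3 or control hairpin replicate 3, and 0 without control hairpin replicate 1, and the rises numbered 2 without control hairpin replicate 2.

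Glycogen genes held 3 falls, the liver glycogen synthase Gys2 at -0.93 ± 0.21, Ugp2 at -1.05 ± 0.25 and Ppp1r3c at -0.85 ± 0.25, and 1 rise, Phkg2, among 13. The falls numbered 1 without EGFP replicate 3 or control hairpin replicate 1 and 5 without control hairpin replicate 2, and the rise was called only with all arrays or without control hairpin replicate 2. Glycolysis held 1 rise, Hk1 at 1.23 ± 0.21, and 2 falls among 16, Pfkfb3 and Pfkl. Neither fell without EGFP replicate 1, 2 or 3 or control hairpin replicate 1 (adjusted p up to 0.161 and 0.188), and Pfkl did not without control hairpin replicate 3. Without control hairpin replicate 2 the glycolysis falls numbered 4, and without control hairpin replicate 3 the rises numbered 2. Of the glycolysis list 18.8% passed in either direction, near the 16.1% of all genes tested, and of the glycogen list 30.8%. The glucose carrier Slc2a2 was at 11.56, 11.84 and 11.89 with EGFP and 8.86, 11.81 and 10.61 with the control hairpin, a wide spread that did not pass (adjusted p = 0.115).

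Amino acid catabolism and the urea cycle held 6 rises and 8 falls among 30 genes, 46.7% in all beside 16.1% of all genes tested. Slc25a15, the mitochondrial ornithine carrier, rose from 9.87 to 10.47 with EGFP to 12.02 to 12.52 with the control hairpin, by 2.09 ± 0.17 (adjusted p = 4.68e-06). Hal, which opens histidine breakdown, rose by 1.58 ± 0.30 and Cbs by 1.08 ± 0.21. Tdo2, which opens tryptophan breakdown, fell by 1.21 on the log2 scale, and the urea cycle genes Arg1 and Otc differed by -1.37 and -1.50. The falls numbered 3, 3 and 2 without EGFP replicate 1, 2 or 3, and 4 without control hairpin replicate 1 or 2, and Cps1 and Ass1 differed by 0.15 and 0.20 and did not pass.

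Alkaline phosphatase, Alpl, a membrane enzyme that removes phosphate, was at 7.68, 7.62 and 7.71 with EGFP and at 6.65, 7.08 and 5.98 with the control hairpin. It fell by 1.10 on the log2 scale (SE 0.20, adjusted p = 0.00245). The control hairpin group was the low one of all 5, since the means were 7.46 and 7.59 in the other 48-hour cells and 7.61 with the hairpin against IRE1a and glucagon. In its list of 15 phosphate, vitamin and purine genes 7 fell and 1 rose, with a median of -0.34. Passing genes were 53.3% of the list, beside 16.1% of all genes tested. Urate oxidase, Uox, differed by -1.89 ± 0.40, the nucleoside carrier Slc29a1 by -0.89 ± 0.13 and the carnitine carrier Slc22a5 by -0.65 ± 0.13. The rise was Nt5e, the ectonucleotidase that makes adenosine, at 1.78 ± 0.48, which did not pass without EGFP replicate 2 or 3 or control hairpin replicate 1, and 2 rose without control hairpin replicate 2.

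Of 32 tested cell cycle genes 11 fell and 0 rose in limma, with a median of -0.15. Falls made up 34.4% of the list, beside 6.74% of all genes, and 0 genes were higher at an unadjusted p under 0.05. The median was -0.35 without EGFP replicate 1, -0.03 without EGFP replicate 3 and -0.05 without control hairpin replicate 2. The falls were genes of DNA replication and entry into S phase. They were Rrm2, Cdk2, Ccne1, Ccne2, Pcna, E2f1 and the MCM helicase genes Mcm2, Mcm3, Mcm5, Mcm6 and Mcm7. Rrm2, the ribonucleotide reductase subunit, was at 12.41, 12.50 and 13.00 with EGFP and 9.67, 10.52 and 11.34 with the control hairpin, a difference of -2.13 ± 0.38 (4.37-fold lower, adjusted p = 0.00244). The mitotic genes did not pass: Cdk1 differed by -0.77 (adjusted p = 0.0555), and Aurka, Plk1, Top2a and Mki67 by 0.54, -0.00, -0.16 and -0.50.

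In all 11 falls control hairpin replicate 3 was the array nearest to EGFP, and in 3 of them it overlapped the EGFP arrays. The control hairpin arrays lay below all 9 arrays of the 48-hour cells in 3 of the 11, and in 8 they did not. The falls numbered 7 without EGFP replicate 1, EGFP replicate 3 or control hairpin replicate 2, and 5 without control hairpin replicate 1, and 1 gene rose without control hairpin replicate 3. Other regulators of S phase were among the 12 largest falls. Myb was at 8.73, 9.11 and 9.19 with EGFP and 5.35, 5.13 and 7.27 with the control hairpin, and fell by 3.09 on the log2 scale (SE 0.47). The repressors E2f8 and E2f7 fell by 2.31 and 2.25, with control hairpin replicate 3 again the highest of its group at 8.31 and 9.25. The call of E2f7 was lost without EGFP replicate 3, control hairpin replicate 1 or control hairpin replicate 2 (adjusted p up to 0.0729). Rgcc, a regulator of cell cycle entry, was at 7.51 to 7.91 and 3.54 to 4.53, and fell by 3.59 on the log2 scale (SE 0.39). Its means were 5.42 with wild-type IRE1a and 5.93 with IRE1aS724A, so the EGFP arrays were also high against other 48-hour cells. The control hairpin signals of Rgcc lie near the limit of 4 used for dim signals, so the size of its fall is approximate.

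**Figure D4:**
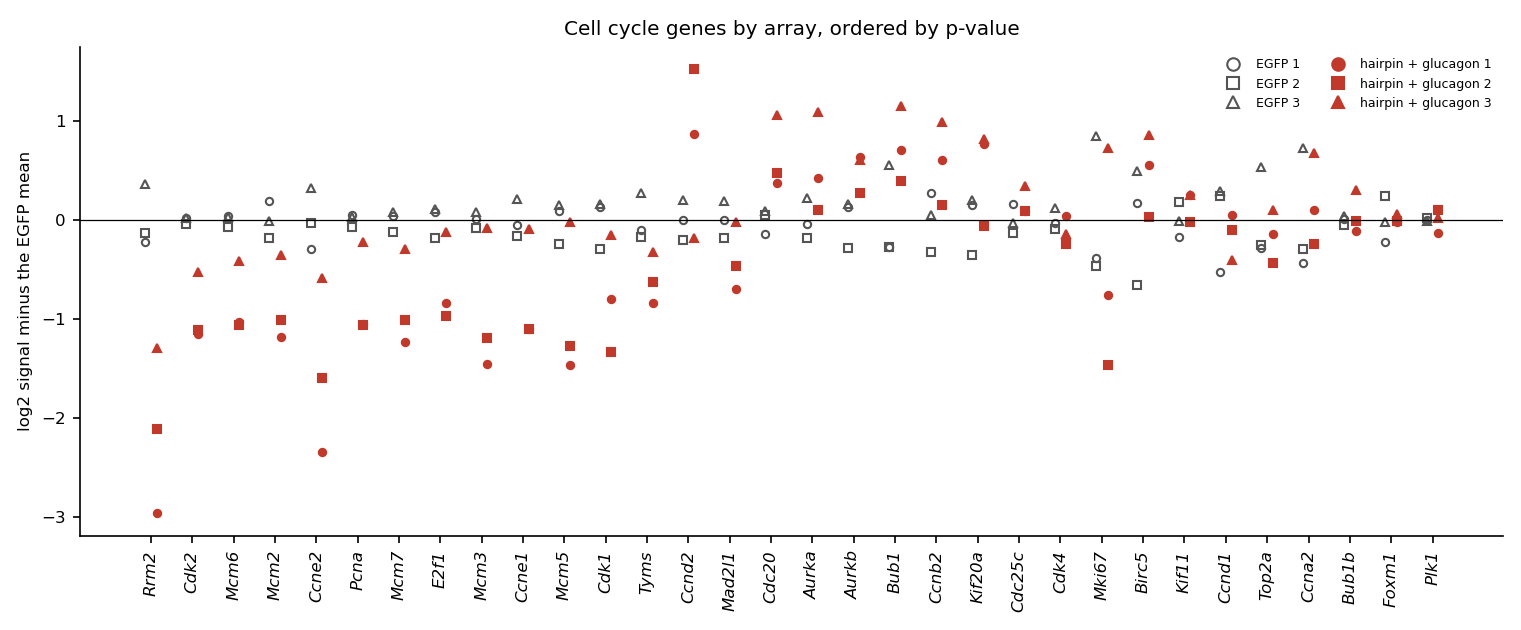
Signal of each cell cycle gene tested on each array, given as log2 distance from the mean of the 3 EGFP arrays (vertical axis) and ordered by p-value from the left. Open grey symbols are EGFP arrays and red symbols control hairpin arrays with glucagon: the 11 genes that fell are the leftmost, and in each the red triangle, control hairpin replicate 3, is the red symbol nearest to 0.

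Further large falls were Gjc1, a connexin, at -2.94 ± 0.53, Fam111a, a protease of replication forks, at -2.39 ± 0.41, and Slfn9 at -2.28 ± 0.37. Gm13889 fell by 2.64 on 1 of 2 probe sets, and on their mean it fell by 1.41. Ager, the receptor for glycated proteins, fell by 2.78 on 1 of 2 probe sets, with the other at 0.06 and their mean at -1.36, and its means in the other 48-hour cells were 5.41 and 5.11 against 8.02 to 8.51 on the EGFP arrays.

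Ern1, which encodes IRE1a, and Xbp1, whose messenger RNA it splices, did not pass. Ern1 was at 9.41, 8.68 and 8.81 with EGFP and 8.89, 8.96 and 9.10 with the control hairpin, a difference of 0.02 ± 0.19 (95% interval -0.38 to 0.42). Xbp1 differed by 0.02 ± 0.11 (95% interval -0.23 to 0.26). Among genes of the endoplasmic reticulum the rises were 9 of 20 genes of ER-associated degradation, 5 of 26 chaperones and 5 of 30 translocation and COPII genes, with 1, 0 and 0 falls in limma and 3, 1 and 1 lower at an unadjusted p under 0.05. In either direction 50%, 19.2% and 16.7% of these lists passed, and the shares of chaperones and translocation were near the 16.1% of all genes tested. The medians of the 3 lists were 0.20, 0.17 and 0.22, and without control hairpin replicate 1 the first and last were 0.13 and 0.14. Edem3, a mannosidase of degradation, rose by 0.96 ± 0.14 and Herpud1 by 0.74 ± 0.17, while the chaperone Hspa5 differed by -0.22 and did not pass. The counts of rises were 2, 2 and 2 without EGFP replicate 2, 3, 2 and 2 without EGFP replicate 3, and 2, 2 and 2 without control hairpin replicate 1. The rises of ER-associated degradation numbered 4 without control hairpin replicate 2, and those of translocation 10 without control hairpin replicate 3. None of the rises in these 3 lists lifted the control hairpin arrays above all 9 arrays of the 48-hour cells. Those 9 include the cells with added IRE1a, where such genes can be high. With wild-type IRE1a the means of Edem3 and Herpud1 were 10.32 and 12.35, against 9.60 and 10.72 with EGFP. Lying within that range therefore does not place the rises within the spread of EGFP cells. ATF4 and CHOP are factors shared by the unfolded protein response and the response to amino acid shortage. Their targets held 8 falls and 0 rises in limma among 28, with a median of -0.36 and 2 higher at an unadjusted p under 0.05. Falls made up 28.6% of this list, beside 6.74% of all genes. Trib3 differed by -0.98 ± 0.18, Shmt2 by -0.83 ± 0.18 and Atf4 by -0.52 ± 0.12 on 1 of 3 probe sets (-0.27 on their mean), a fall that did not pass without control hairpin replicate 1 (adjusted p = 0.0570). Without EGFP replicate 3 or control hairpin replicate 1 the falls numbered 4 or 3, and 1 gene rose without control hairpin replicate 2.

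The list of YAP and TGF-beta targets held 9 rises and 1 fall among 23 tested genes, beside 9.34% and 6.74% of all genes. The count of rises was 9 in each alternative run. Lats2, a kinase that restrains YAP, was at 7.32 to 7.40 with EGFP and 8.41 to 8.81 with the control hairpin, a rise of 1.25 ± 0.13 (adjusted p = 3.54e-05) with 4 of 6 probe sets passing and 0.69 as their mean. The receptor gene Tgfbr1 rose by 1.94 ± 0.25, the matrix-binding gene Crim1 by 2.10 ± 0.35 and Amotl2 by 1.13 ± 0.18. The members that rose include regulators of these routes, and the classical YAP targets Ccn2, Ccn1 and Ankrd1 differed by 0.18, 0.25 and 0.13 and did not pass. The list's median was 0.18, but 0.01 without EGFP replicate 1, 0.57 without EGFP replicate 2, 0.09 without control hairpin replicate 1 and 0.35 without control hairpin replicate 3, and 2 genes fell without EGFP replicate 1.

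Clock genes held 6 rises and 2 falls among 18, 44.4% in all beside 16.1% of all genes tested. The repressor Nfil3 rose by 1.65 ± 0.18, Per2 by 1.33 ± 0.22 on 1 of 3 probe sets (0.55 on their mean), Rora by 1.13 ± 0.18 and the output factor Dbp by 1.01 ± 0.19. A single fall was left without EGFP replicate 1 or 3 or any 1 control hairpin array. The labels give no time of day. Autophagy and lysosome genes held 10 rises and 2 falls among 33, 36.4% in all, with a median of 0.32. Map1lc3b, the autophagosome protein, rose by 0.95 ± 0.15, and Wipi1 by 0.93 ± 0.16 (0.58 on the mean of probe sets), while the regulator Tfeb fell by 0.47 on the log2 scale. Without EGFP replicate 2, EGFP replicate 3 or control hairpin replicate 1 the rises numbered 4, 5 and 3, and without any 1 array other than control hairpin replicate 3 the falls numbered 1.

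The other lists held fewer calls, and most of those rested on single arrays. Beside 16.1% of all genes, 3.23% of respiratory chain, 4.76% of NF-kB, 13.8% of interferon and 17.9% of acute phase genes passed. Of 31 respiratory chain genes 0 rose in limma, with 2 higher at an unadjusted p under 0.05, and 1, Ndufa8, fell, though not without EGFP replicate 3 or control hairpin replicate 1. Of 21 NF-kB targets 1 rose and 0 fell in limma, with 4 higher and 1 lower at an unadjusted p under 0.05, and the rises numbered 3 without EGFP replicate 1 and 0 without EGFP replicate 2 or 3 or control hairpin replicate 1 or 3. Of 29 interferon response genes 3 rose and 1, Irf8, fell by 1.12 on the log2 scale (SE 0.24). Their rises numbered 0 without EGFP replicate 2 or control hairpin replicate 1, 1 without EGFP replicate 3 and 6 without control hairpin replicate 3. Of 28 acute phase genes 2 rose and 3 fell, with Socs3 the rise that held without each single array, and 5 rose without control hairpin replicate 3. The acute phase falls numbered 0 without EGFP replicate 2 and 1 without EGFP replicate 1 or 3 or control hairpin replicate 2 or 3.

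Matrix and adhesion genes held 7 rises and 3 falls among 31, 32.3% in all beside 16.1% of all genes tested. The rises numbered 4 without EGFP replicate 2, 2 without EGFP replicate 3 and 0 without control hairpin replicate 1, and the falls 0 without any 1 EGFP array and 1 without control hairpin replicate 2. Actin and keratin genes held 7 rises and 4 falls among 37 (29.7% in all), led by the actin crosslinker Actn1 at 1.30 ± 0.21. Their rises numbered 4, 3, 2 and 11 without EGFP replicate 2, EGFP replicate 3, control hairpin replicate 1 and control hairpin replicate 3, and the falls 1, 1, 1 and 2 without EGFP replicate 2, EGFP replicate 3, control hairpin replicate 1 and control hairpin replicate 2. Genes of the NRF2 response held 3 falls among 17, led by the sulfiredoxin Srxn1 at -1.33 ± 0.21, and 1 fall without EGFP replicate 3 or control hairpin replicate 1. Among them 0 rose in limma, 1 was higher at an unadjusted p under 0.05, and 1 rose without control hairpin replicate 3. Genes of p53 and growth arrest held 1 rise, Gadd45g at 2.11 ± 0.22, and 2 falls, Gadd45a at -1.32 ± 0.27 and Fas, among 22. Without EGFP replicate 1 or 3 or control hairpin replicate 1 only Gadd45a fell, and without control hairpin replicate 3 the falls numbered 4. Zonation genes held 4 rises and 4 falls among 21 (38.1% in all), with 2 falls without EGFP replicate 3. Zinc and iron genes held 2 rises and 1 fall among 20, with 0 rises without EGFP replicate 2 or 3 or control hairpin replicate 1, and the fall was called only with all arrays or without control hairpin replicate 2. In the NRF2, p53 and zinc and iron lists 17.6%, 13.6% and 15% passed, near the 16.1% of all genes tested.

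**Figure D5:**
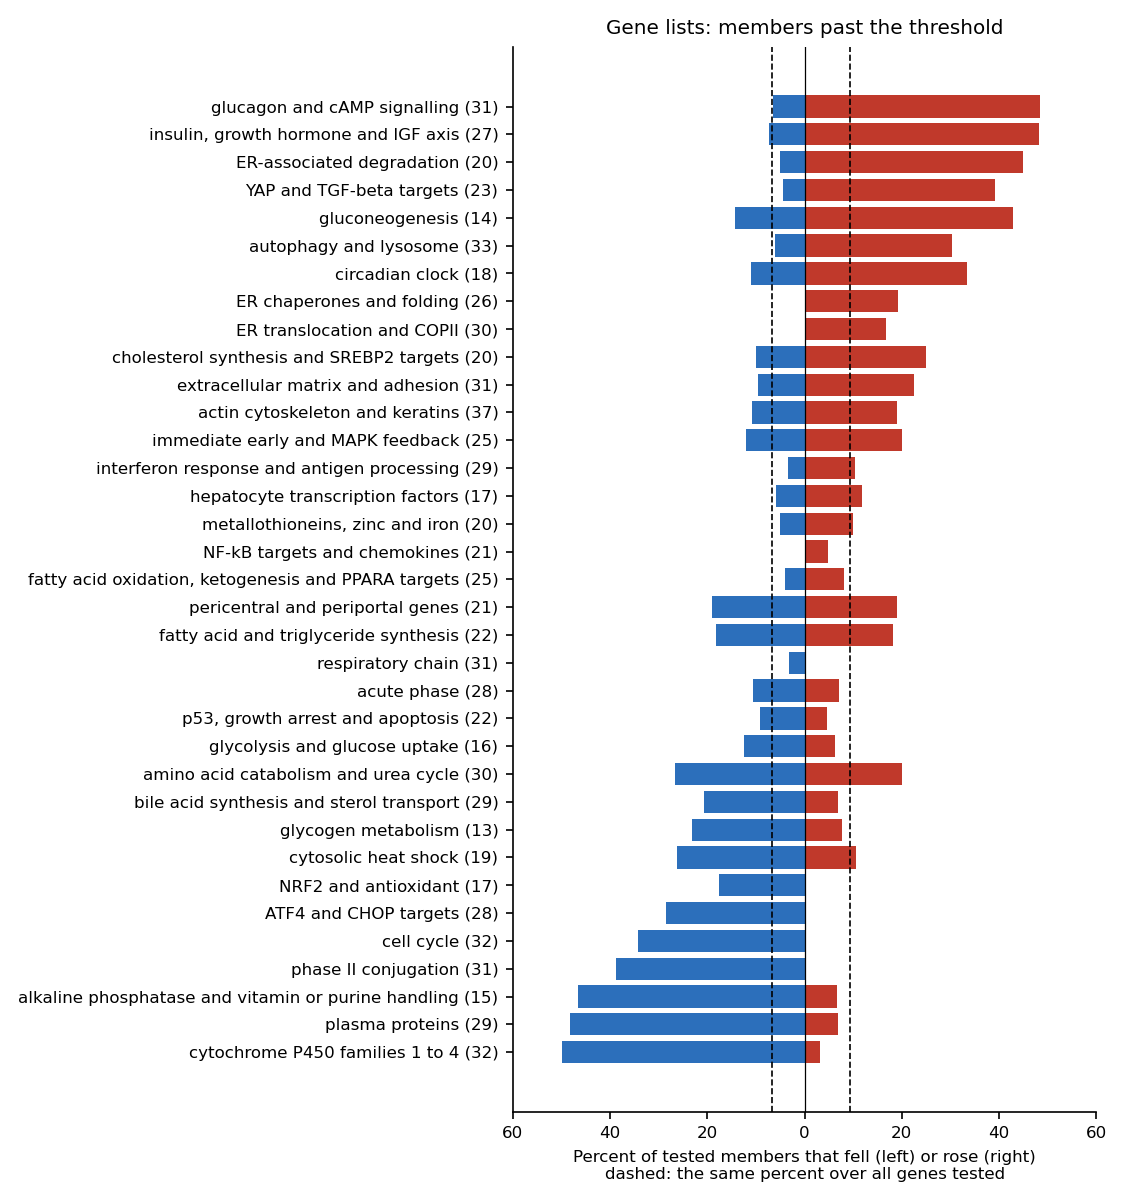
Percent of the tested members of each gene list (number tested in brackets) that rose (red, right) or fell (blue, left) with the control hairpin and glucagon. Dashed lines are the percentages over all 16294 genes, 9.34% and 6.74%: cyclic AMP signalling with 15 of 31 rises is at the top and cytochrome P450 with 16 of 32 falls at the bottom.

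Markers of other liver cells were summed over each list on each array, as log2 of the summed signal. The 16 macrophage markers were at 11.81 to 12.01 on the EGFP arrays and 11.37 to 11.84 on the control hairpin arrays, with 0 of 13 tested passing in limma and 1 lower at an unadjusted p under 0.05. For 15 endothelial markers the ranges were 10.17 to 10.25 and 9.95 to 10.09, with 1 rise (Cdh5) and 1 fall (Tek) among 14. For 16 stellate cell and fibroblast markers they were 9.57 to 9.73 and 9.42 to 9.43, with 2 falls (Reln and Acta2) among 14. None of these 4 calls held without each single array. Of the endothelial and the stellate list 14.3% each passed, near the 16.1% of all genes tested. Cholangiocyte markers were at 8.53 to 8.83 and 8.46 to 8.80, lymphocyte and neutrophil markers at 9.12 to 9.40 and 9.02 to 9.10, and erythroid and platelet markers at 9.24 to 9.34 and 8.88 to 9.21, with 1 of 6, 1 of 12 and 0 of 8 lower past the threshold. Below 4 on all 6 arrays were 2 macrophage, 1 endothelial, 2 stellate, 2 cholangiocyte, 3 lymphocyte and 0 erythroid markers, among them Lrat of stellate cells and Krt7 of cholangiocytes. The control hairpin sums lay below every EGFP sum for the endothelial, stellate, lymphocyte and erythroid lists, and their part in the results above was not tested. In such bulk cultures, fewer cells of a type and less RNA per cell cannot be told apart. Of 5 sex-linked transcripts the Y-linked Uty rose by 0.88 ± 0.19 with all 4 of its probe sets passing, and the others did not pass. The sum of the 5 was 10.36 to 10.54 with EGFP and 10.58 to 11.17 with the control hairpin. It was 10.16 to 10.54 in the other 48-hour cells and 10.74 to 10.75 with the hairpin against IRE1a and glucagon. Whether the animals of the groups differed was not tested.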

How the data were processed

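Biotin-labelled RNA of primary mouse hepatocytes was read on 15 Affymetrix arrays in 5 groups of 3. The table the authors deposited gives each probe set a log2 signal per array, made with GCRMA per the submitters' processing notes, whose version the sources used here do not name. The log2 scale was read from the values. GCRMA corrects background by probe sequence and normalises arrays to a common distribution, so an overall change in RNA amount is not measured.

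Of 45101 probe sets, 64 controls were left out, 34945 had 1 gene symbol, 932 several and 9160 none. Symbols were updated through the gene number, which matched GRCm38.p6 for 34741. A gene took its probe set with the highest mean over the 15 arrays (18193 genes) and was tested at 4 or more in at least 3 arrays (16294 genes). Limma 3.58.1 (R 4.3.3) fitted the 5 groups to all 15 arrays (lmFit, eBayes, 10 residual degrees of freedom), and the contrast was control hairpin with glucagon minus EGFP, two-sided, with Benjamini-Hochberg adjustment over all genes tested. Errors are limma's SE unless named SD. The median half-width of a 95% interval was 0.30, which the small number of arrays sets. An exact test of 3 against 3 could not go below 0.1.

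The members and the 42 gene lists were chosen with earlier results of these data known. Named genes are a core of 10, then the 12 genes that rose most and the 12 that fell most among calls with no overlap, then at most 4 genes per list in order of p (2 where under 3 passed). Other members were named after their values were seen. No replicate pairing across the groups is given in the labels. The fit was tested on simulated data. Alternatives were a replicate block, a random block, the 6 arrays alone, quantile normalisation, median centring, other filters and a floor, trended and robust variances, the mean of probe sets, and leaving out each array. Promoters were matched by symbol to RefSeq, for 12994 of the genes tested.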

Additional observations from a re-analysis of the deposited data

Results flagged for a closer look

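Probe sets that carry no gene symbol in the platform's annotation stayed outside the gene comparison. Of the 6373 such probe sets tested in the same way, 278 rose with the control hairpin and glucagon (4.36%) and 172 fell (2.7%), beside 9.34% and 6.74% of genes. They are given because the comparison of genes does not use them. Of 784 probe sets with several symbols, 35 rose and 35 fell (4.46% each).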

How the results depend on the processing

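Leaving out 1 array at a time gave 1330 to 2756 changed genes, 823 to 1614 rises and 501 to 1170 falls, against 2620, 1522 and 1098. The count was moved by more than 1.5 times without EGFP replicate 2 (1476, with 827 rises and 649 falls), EGFP replicate 3 (1349, 823 and 526) or control hairpin replicate 1 (1330, 829 and 501). Rises were 58.1% of the calls, but 45.1% after quantile normalisation (1164 rises, 1417 falls) and 66.3% after median centring (1537 and 782). The replicate block gave 3365 calls, 1866 rises and 1499 falls. Deviations of arrays with the same number correlated at 0.09, 0.02 and 0.05 across the groups. So few arrays cannot settle whether the numbers mark a shared preparation. A random block of arm and number, with an estimated correlation of 0.26 within blocks, gave 2726. The 6 arrays alone gave 2027. Of the 149 named genes past the threshold, 100 passed in all 16 alternatives, 1 (Slco1b2) in the 15 in which it was tested, 48 were lost in at least 1 and 0 changed direction. The difference of Ern1, which did not pass, changed sign to -0.10 after quantile normalisation and -0.15 with the mean of probe sets, and to -0.12, -0.06 and -0.04 without EGFP replicate 2, EGFP replicate 3 or control hairpin replicate 3. That of Xbp1 changed sign to -0.04 and -0.01 in the former settings, and to -0.03 and -0.08 without EGFP replicate 2 or control hairpin replicate 1. Over all arrays left out, Ern1 ranged from -0.12 to 0.24 and Xbp1 from -0.08 to 0.10. The causes were not tested. Signals near background limit what dim genes can show.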

Other observations

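Genes next in size to those named above, chosen after their values were seen, add to the picture of the control hairpin cells. Among tight junction genes, Cldn4 was at 7.61, 7.49 and 6.68 with EGFP and 11.23, 9.93 and 9.53 with the control hairpin, a rise of 2.97 ± 0.49, and Cldn1 rose by 1.99 ± 0.34. Slc25a25, a mitochondrial carrier of ATP, rose by 2.44 ± 0.13 and the cationic amino acid carrier Slc7a2 by 2.36 ± 0.31. Sgk1, a kinase that governs ion transport, was at 10.90 to 11.01 and 12.92 to 13.01, a rise of 1.99 ± 0.10 with little spread in either group. Hilpda, a lipid droplet protein, rose by 2.64 ± 0.27, thrombomodulin (Thbd) by 2.52 ± 0.36, the alarmin Il33 by 2.11 ± 0.38 and the fasting-responsive factor Klf15 by 2.26 ± 0.46. Fbxo33 rose by 2.76 ± 0.22 and the alcohol dehydrogenase Adh1 by 1.87 ± 0.15.

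Among further falls, also chosen after their values were seen, several encode replication and chromatin assembly proteins. Uhrf1, which maintains DNA methylation, was at 10.16, 9.92 and 10.27 with EGFP and 7.75, 7.80 and 9.40 with the control hairpin, a difference of -1.80 ± 0.33. Tcf19, the primase Prim1, the chromatin assembly factor Chaf1b and the licensing factor Cdc6 differed by -2.02, -1.65, -1.63 and -1.72. In Uhrf1, as in the replication genes of the report, control hairpin replicate 3 was nearest to EGFP. The fatty acid elongase Elovl3 differed by -1.68 ± 0.11 and the aminotransferase Agxt2 by -2.04 ± 0.27.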
